A study of Mus musculus with 16 samples.

Results

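The genes described here are the splicing factors and heterogeneous nuclear ribonucleoproteins (hnRNPs) on a whole mouse genome array. They were chosen by name alone, as probes whose gene name in the array files starts with Sfrs or Srsf and a digit, Hnrp, Snrp, Sf3a, Sf3b, or Prpf and a digit. The rule took 148 of 41174 probes, which carry 70 of the 27962 gene names. RNA came from CD8 T cells of female C57BL/6N mice at 7 weeks of age. The cells were sorted by flow cytometry as CD8+ and Thy1.2+, with those low in CD44 taken as naive and those high in it as memory phenotype. Memory phenotype is thus a surface state, and the labels name no infection or antigen behind it, nor how many mice went into a sort. Each fraction spent 4 h in medium alone (resting) or with 10 ng/mL PMA and 500 ng/mL ionomycin (stimulated). PMA is a phorbol ester that switches on protein kinase C, and ionomycin lets calcium into the cell, so both together act downstream of the T cell receptor. The 4 groups were naive resting, naive stimulated, memory resting and memory stimulated, with 4 arrays each. The sort and the culture were carried out on 4 separate occasions, per the design text.

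Introns are cut out of pre-mRNA by the spliceosome, which is assembled anew on each intron from small nuclear ribonucleoproteins (snRNPs) and a large number of further proteins. SR proteins mostly bind exonic enhancers and recruit the machinery to nearby splice sites, whereas many hnRNPs coat the transcript and oppose the use of particular exons. T cells change the splicing of a number of transcripts when they are activated, and the exons of Ptprc, which encodes the phosphatase CD45, are the classical case. The arrays measured how much mRNA of each splicing gene was present and not how any transcript was spliced.

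Each level is the log2 of the signal minus the log2 of the 75th percentile of its array, so that a level of 0 stands for that percentile and a step of 1 for a doubling. Probes entered the tests if 3 or more arrays of any group of 4 read them well above background. That held for 145 of the 148 probes and 69 of the 70 genes, and left out the only probe of Hnrpul2 and 1 probe each of Hnrpul1 and Sf3b4. A gene is represented by its brightest tested probe, and 68 of these 69 probes were well above background on all 16 arrays. The exception is Snrpn, which was so on 15. Changes are given with the standard error (SE) of a limma fit over all 18570 genes tested, and a gene is said to have risen or fallen where its Benjamini-Hochberg adjusted p over those genes was below 0.05.

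On each array 59.3% to 66.5% of the spots were well above background, and arrays of 1 group correlated at 0.9783 to 0.9953. For 6 T cell markers the signals were summed and the log2 of the sum taken, so the brightest marker weighs most. This log2 sum lay between 8.23 and 8.77 on the naive resting and between 7.61 and 8.11 on the naive stimulated arrays. In memory cells it lay between 8.27 and 8.44 at rest and between 7.99 and 8.26 after stimulation. Of the 6 markers 5 fell in naive cells, while 4 fell and Thy1 rose in memory cells. The log2 sum of 4 B cell markers lay between 0.37 and 1.13 on the resting arrays and between -2.51 and -1.34 on the stimulated ones. For 6 markers of monocytes, macrophages or neutrophils the ranges were 2.97 to 4.40 at rest and 0.59 to 2.11 after stimulation. Of the 4 B cell markers, 1 fell in naive and 3 in memory cells, and 4 of the 6 myeloid markers fell in each. The myeloid marker Itgam rose in naive cells, by 2.04 ± 0.74. The log2 sum of 2 erythrocyte markers stayed at or below -1.04. That of 2 CD4 T cell markers lay between -2.0 and -1.71 on the memory resting arrays and between -4.23 and -3.30 in the other groups. That of 2 NK cell markers lay between -1.24 and -0.11 on the memory resting and between -4.92 and -2.74 on the other arrays. The largest falls were those of the B cell gene Cd79b (-4.58 in naive and -3.91 in memory cells) and of S100a8 (-3.20 and -3.69), a neutrophil gene. These markers moved with stimulation, as the splicing genes did, and their part in the results was not tested. Each group occupied 1 slide, scanned on its own, so slide and group cannot be told apart. In bulk RNA, fewer cells of a type and less RNA per cell cannot be told apart either.

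Most splicing genes rose within 4 h in both kinds of cell. In naive cells 55 of the 69 genes rose (79.7%) and 4 fell, where 38.2% of all genes tested rose and 30.9% fell. In memory phenotype cells 61 rose (88.4%) and 2 fell, where 31.3% of all genes rose and 39.1% fell. Over the 69 genes the median log2 change was 1.03 (naive) and 1.18 (memory), against 0.15 and -0.16 over all genes. The stimulated arrays lay wholly above the resting ones for 54 genes in naive cells (32.9% of all genes did so) and for 58 in memory cells (29.0% of all genes). A rise of at least 2-fold was fitted for 36 and 44 of the 69, beside 4127 and 3494 of all 18570 genes. Counted by probe, 113 of 145 rose in naive cells (77.9%, beside 38.9% of all probes) and 112 in memory cells (33.4% of all probes), while 7 and 6 fell (30.4% and 37.2%).

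Genes of the same brightness leaned upward as a whole, though less. Among the 2337 genes whose mean level lay between 2.84 and 5.31, the range that holds the middle of the splicing genes, 54.3% rose in naive and 58.5% in memory cells, with median changes of 0.45 and 0.55. Of the 33 splicing genes in that range 25 and 29 rose. Quantile scaling, which gives all arrays 1 distribution, lowered the median change of the 69 genes to 0.67 in naive and 0.65 in memory cells, with 45 genes up and 8 down in naive and 50 up and 8 down in memory cells. Over all 18570 genes quantile scaling called 6423 up and 6464 down in naive and 5782 up and 7022 down in memory cells. In the authors' deposited table, of unknown scaling, the counts were 46 up and 10 down and 48 up and 9 down. Of all 18569 genes read there, 6188 rose and 6574 fell in naive and 5624 rose and 7101 fell in memory cells.

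**Figure D1:**
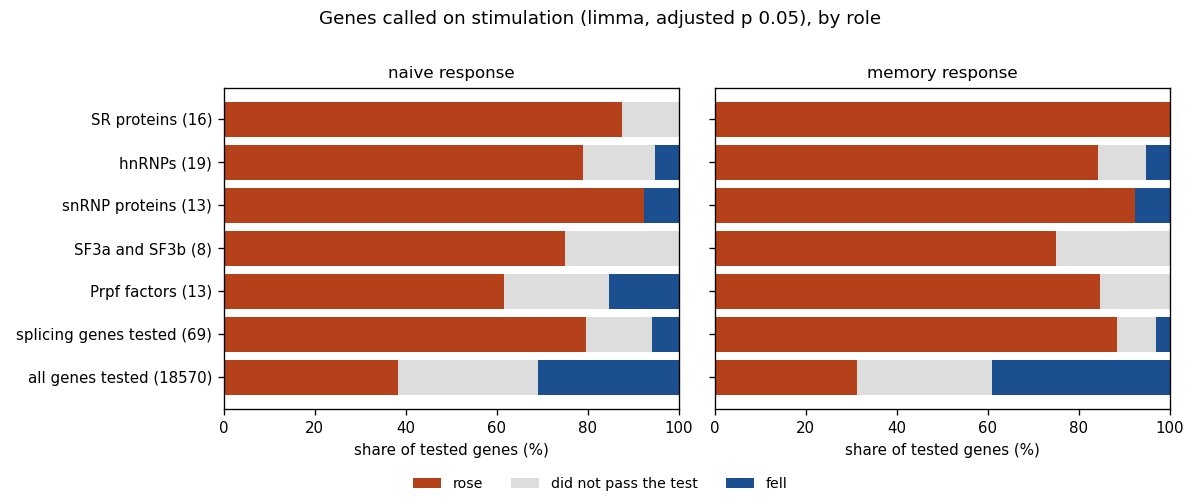
Share of tested genes that rose, fell or did not pass the test on stimulation, in naive (left) and memory phenotype cells (right), for each role, for the 69 splicing genes tested and for all 18570 genes tested, with the number of genes in brackets. The part that rose fills 79.7% and 88.4% of the bar of the splicing genes and 38.2% and 31.3% of that of all genes. Under quantile scaling 45 and 50 of the 69 rose.

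The snRNP proteins include the Sm proteins, which form the ring around each spliceosomal RNA, and proteins particular to the U1 or the U2 particle. Of the 13 genes 12 rose in naive and the same number in memory cells, with median changes of 1.14 and 1.28, and only Snrpn fell. The role's median stayed between 0.45 and 1.20 in naive and between 0.62 and 1.60 in memory cells under all settings tried. Snrpd1 encodes the Sm protein D1. Its 4 naive resting arrays read 2.31, 2.38, 2.36 and 2.68 and the naive stimulated ones 5.21, 5.16, 5.19 and 5.28. In memory cells it went from 2.37, 2.42, 2.46 and 2.89 to 5.06, 5.13, 5.23 and 5.10. The groups lay more than 2 log2 units apart with little spread within a group, a change of 2.77 ± 0.12 (SE), or 6.83-fold, in naive cells (adjusted p = 3.11e-11, limma) and of 2.60 ± 0.12 in memory cells.

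Snrpa1, the A' protein of the U2 particle, went from 2.73, 2.75, 2.76 and 2.90 to 5.34, 5.16, 5.22 and 5.29 in naive cells. In memory cells it went from 2.64, 2.60, 2.60 and 2.88 to 5.21, 5.20, 5.15 and 5.22. Naive and memory cells overlapped at rest and after stimulation, and the changes were 2.47 ± 0.09 and 2.52 ± 0.09, or 5.53-fold and 5.73-fold. Snrpa, the U1 protein that binds a stem loop of U1 RNA, rose by 1.98 ± 0.11 and 2.03 ± 0.11. The other U1 proteins rose less. Snrp1c changed by 1.09 and 1.21, and Snrp70 by 0.52 and 1.18. Quantile scaling turned the naive change of Snrp70 to -0.03 (adjusted p = 0.875), and that of the Sm gene Snrpg from 0.46 to -0.12 (adjusted p = 0.229). In the authors' deposited table these came to -0.10 (adjusted p = 0.534) and to -0.22 (adjusted p = 0.0228). The remaining Sm genes Snrpb, Snrpd2, Snrpd3, Snrpe and Snrpf rose by 0.65 to 1.42 in naive and by 1.10 to 1.89 in memory cells, and Snrpb2 of the U2 particle by 1.03 and 1.08.

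SF3a and SF3b are the protein complexes that hold the U2 particle on the branch point of the intron. Of their 8 genes 6 rose in each kind of cell, with median changes of 0.99 and 1.19. Sf3b4 rose furthest in naive cells, from 3.41, 3.71, 3.64 and 3.87 to 5.35, 5.48, 5.36 and 5.43, or by 1.75 ± 0.14. Sf3b3 went from 2.87, 2.93, 2.80 and 2.91 to 4.37, 4.62, 4.77 and 4.72 in memory cells, a change of 1.74 ± 0.15, beside 1.38 ± 0.15 in naive cells. Resting and stimulated arrays did not overlap in either case. Sf3a1 rose by 1.38 and 1.36. Sf3a2 and Sf3a3, the smaller SF3a subunits, rose by 0.81 and 0.93 in naive cells, and Sf3b5 by 1.05. Sf3b1, the subunit that contacts the branch point, did not pass the test (0.38 ± 0.31 in naive, 0.16 ± 0.31 in memory cells). Its arrays spread widely, from 2.18 to 3.37 in naive resting and from 1.76 to 3.05 in memory stimulated cells. The values of Sf3b2 were 0.00 ± 0.11 and 0.04 ± 0.11.

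The SR proteins and SR-related proteins comprise 16 genes under their older names. Of these 14 rose in naive and 16 in memory cells, with median changes of 0.94 and 1.26, and none fell. Under quantile scaling the memory changes of Sfrs4, Sfrs8 and Sfrs16 turned from 0.40, 0.32 and 0.41 to -0.07, -0.33 and -0.22, and that of Sfrs8 then passed the test downward (adjusted p = 0.0113). Sfrs2, now Srsf2, encodes SC35, a founding member of the family. It read 4.01, 4.81, 4.85 and 5.27 on the naive resting and 6.14, 6.53, 6.55 and 6.53 on the naive stimulated arrays. In memory cells it went from 3.80, 4.25, 4.28 and 4.47 to 6.00, 6.31, 6.34 and 6.47. Every stimulated array was above every resting one, and the changes were 1.70 ± 0.22 (3.25-fold) and 2.08 ± 0.22 (4.22-fold). All 4 probes of the gene rose in both, by up to 2.98 in naive and 3.05 in memory cells.

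Sfrs1 (Srsf1, the splicing factor SF2) rose by 1.37 ± 0.14 in naive and 1.71 ± 0.14 in memory cells. Sfrs6 rose by 1.58 ± 0.21 and 1.80 ± 0.21. Sfrs7 went from 5.18, 5.63, 5.55 and 5.68 to 6.76, 7.24, 7.16 and 7.23 in naive cells, a change of 1.59 ± 0.17. Its memory change was 1.53 ± 0.17. Sfrs10 (Tra2b, a relative that binds purine-rich enhancers) rose by 1.21 and 1.27, and Sfrs15 (Scaf4) by 1.06 and 1.55. Smaller changes were those of Sfrs3 with 0.48 and 0.46, Sfrs4 with 0.38 and 0.40, and Sfrs2ip (Scaf11) with 0.35 and 0.58. At the low end of the family were Sfrs8 with 0.18 ± 0.13 in naive cells, which did not pass, and 0.32 ± 0.13 in memory cells, and Sfrs16 with 0.12 ± 0.14, which did not pass, and 0.41 ± 0.14. A second probe of Sfrs3 gave 0.28 ± 0.27 and -0.13 ± 0.27 and did not pass.

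The hnRNPs bind nascent transcripts throughout the nucleus. Of the 19 genes tested 15 rose in naive and 16 in memory cells, with medians of 0.87 and 1.07, and Hnrpul1 fell in both. Hnrpu, a nuclear matrix protein that binds RNA and DNA, rose furthest. Its naive arrays read 5.98, 6.04, 5.98 and 6.33 at rest and 7.69, 7.89, 7.88 and 8.09 after stimulation. The memory arrays read 5.53, 5.66, 5.69 and 5.98 and then 7.73, 7.97, 8.21 and 8.16. The stimulated arrays stood well above the resting ones in both, with changes of 1.81 ± 0.14 and 2.31 ± 0.14. Hnrpab rose by 1.55 ± 0.14 and 1.83 ± 0.14, and Hnrpa2b1 by 1.54 ± 0.14 and 0.99 ± 0.14.

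Hnrpc, whose tetramer binds uridine tracts, rose by 1.35 ± 0.14 and 1.50 ± 0.14. Hnrpd (AUF1, which binds AU-rich elements and affects mRNA turnover) rose by 1.16 ± 0.13 and 1.10 ± 0.13. Hnrpa0 rose by 1.62 ± 0.46 and 1.60 ± 0.46, with a large error because the replicate 4 arrays were low at rest. They read -0.85 in naive and -0.16 in memory cells, where the other resting arrays lay between 1.24 and 1.41. Hnrpa1, a repressor of exons, rose by 1.05 ± 0.16 and 1.22 ± 0.16 on its brightest probe. That probe lies on chromosome 9 in the files, and the other 3 probes of the name on chromosome 15, so the gene behind it is uncertain. The chromosome 15 probes gave 0.36 to 1.72 in naive and 0.87 to 1.44 in memory cells, of which the lowest naive value did not pass (adjusted p = 0.299). Hnrpk, Hnrpf and Hnrpa3 rose by 0.47 to 0.70 in naive and by 0.63 to 0.73 in memory cells. Hnrph1 gave 0.04 ± 0.18 and 0.16 ± 0.18 and Hnrpl, a repressor that binds CA repeats, -0.37 ± 0.25 and -0.33 ± 0.25, and neither passed.

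The Prpf genes are named after yeast pre-mRNA processing mutants and act at different steps. Of the 13, 8 rose and 2 fell in naive cells, and 11 rose and none fell in memory cells. The median changes were 1.08 and 1.16. Prpf31, which joins the U4 and U6 particle to U5, went from 3.92, 3.97, 3.95 and 4.62 to 6.15, 5.94, 5.85 and 6.08 in naive cells. In memory cells it went from 3.79, 4.04, 3.89 and 4.45 to 6.11, 6.07, 6.22 and 5.96. The changes were 1.89 ± 0.17 and 2.05 ± 0.17 with no overlap of the groups. Prpf3 and Prpf4 of the same particle rose by 1.40 and 1.08 in naive and by 1.75 and 1.51 in memory cells. Prpf19, the ubiquitin ligase of the complex that activates the spliceosome, rose by 1.64 ± 0.15 and 1.49 ± 0.15. Prpf38a rose by 1.52 and 1.46. The kinase gene Prpf4b rose 2.0-fold in naive cells (adjusted p = 0.0134) and 1.84-fold in memory cells (adjusted p = 0.0264), with an SE of 0.33 log2 units.

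Prpf6, which bridges the tri-snRNP, fell in naive cells from 4.47, 4.34, 4.38 and 4.39 to 4.08, 3.75, 3.80 and 3.72. Its change was -0.56 ± 0.10 there and -0.22 ± 0.10 in memory cells, where it did not pass (adjusted p = 0.0595). Prpf18, a factor of the second catalytic step, fell by 0.45 on the log2 scale in naive cells and gave -0.30 ± 0.14 in memory cells (adjusted p = 0.0693). Prpf8, the large protein at the catalytic core, gave 0.21 ± 0.16 in naive cells and rose by 0.63 ± 0.16 in memory cells. Averaging all tested probes of a gene in place of the brightest left no gene that fell in naive cells and 1 that fell in memory cells.

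**Figure D2:**
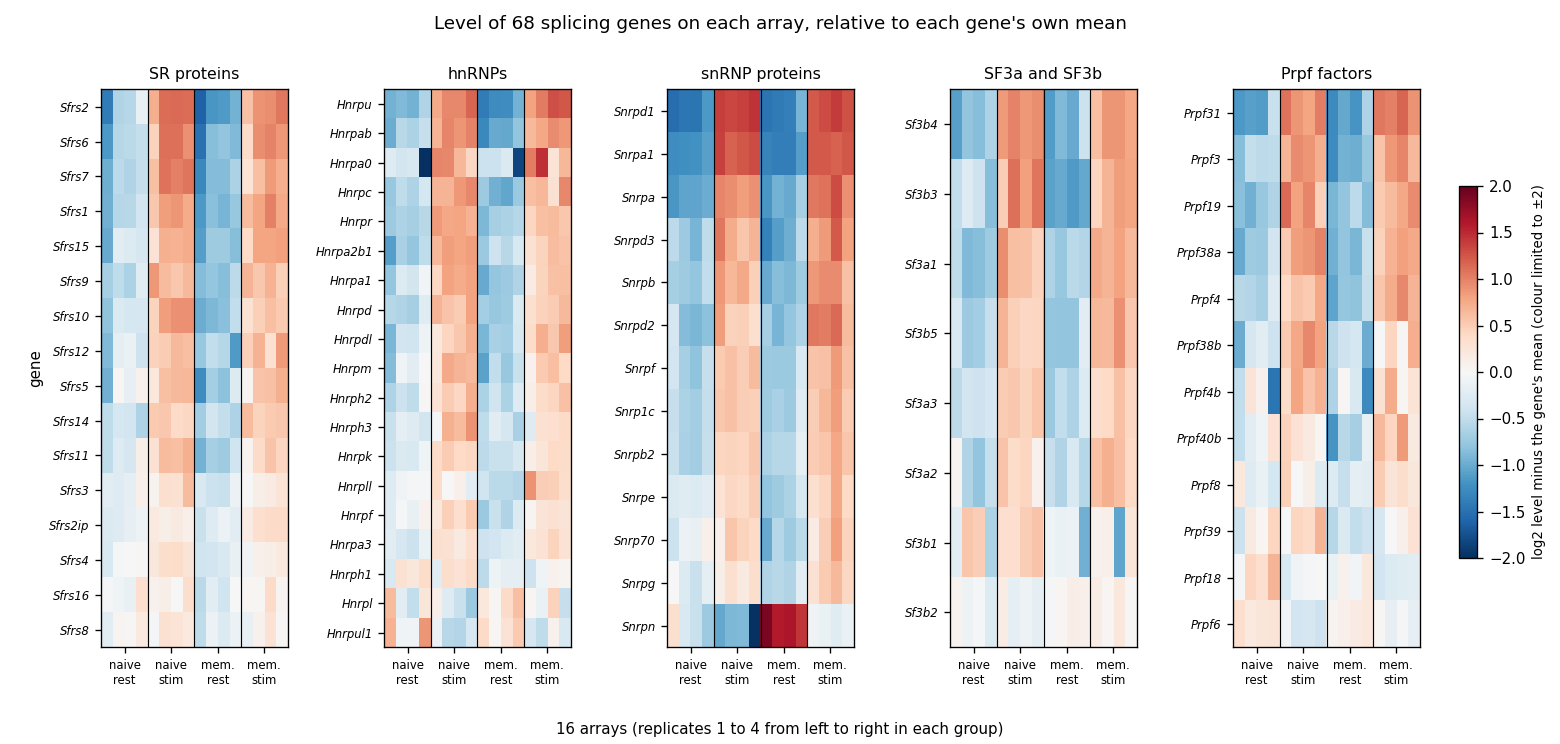
Log2 level of 68 of the 69 tested splicing genes on each of the 16 arrays minus the gene's mean over the arrays, by role, with genes ordered by the sum of their 2 responses and colour limited to 2 units either way. In each role most rows turn from blue on the resting to red on the stimulated arrays of both kinds of cell. Snrpn, in the bottom row of the snRNP proteins, is highest on the 4 memory resting arrays. Under quantile scaling the median change was 0.67 in naive and 0.65 in memory cells.

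The naive and the memory response were much alike gene by gene. Of the 69 genes 55 rose in both (26.2% of all genes did so) and 2 fell in both, namely Hnrpul1 and Snrpn. Hnrph1, Hnrpl, Sf3b1 and Sf3b2 passed in neither. Prpf18 and Prpf6 fell and did not pass in memory cells, and Hnrpll, Prpf39, Prpf40b, Prpf8, Sfrs16 and Sfrs8 rose in memory cells and did not pass in naive ones. No gene did the reverse. Across the 69 genes the 2 responses, which share no array, correlated with a Pearson r of 0.924 and a Spearman rho of 0.897, beside a Pearson r of 0.822 over all genes. Genes are not independent replicates, and this is a description.

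The change was larger in memory cells for 51 of the 69 genes, with a median difference of 0.14 beside 0.00 over all genes, of which 9228 of 18570 were above 0. Genes of the same brightness leaned as far in that direction, with a median difference of 0.19 over the 2337, of which 8.64% passed upward and 3.47% downward. The difference between the responses was tested as an interaction, and only Hnrpll passed, upward (5.89% of all genes passed upward and 14.1% downward). Of the other 5 genes called in memory cells alone, Prpf40b had the largest difference, 0.80 ± 0.31 (adjusted p = 0.0801). Prpf8, Prpf39, Sfrs16 and Sfrs8 had adjusted p-values of 0.202 to 0.748. This count depends on the scaling. Centring each array on its median in place of the 75th percentile called 26 genes upward, beside 4851 of all 18570. It moved the median interaction of all genes from 0.00 to 0.34. With the replicate number as a block 6 genes passed upward and 2 downward, beside 1782 and 3006 of all genes. Quantile scaling gave 2 up and 1 down, beside 1333 and 1940 of all genes. The authors' deposited table gave 4 up and 3 down, beside 1692 and 1986 of all genes. The count upward was 6 without memory resting replicate 4, 4 without naive resting replicate 1 or memory stimulated replicate 1, and 2 without naive stimulated replicate 1 or naive resting replicate 3. In that order, 1342, 1262, 1017, 1182 and 874 of all genes passed upward.

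**Figure D3:**
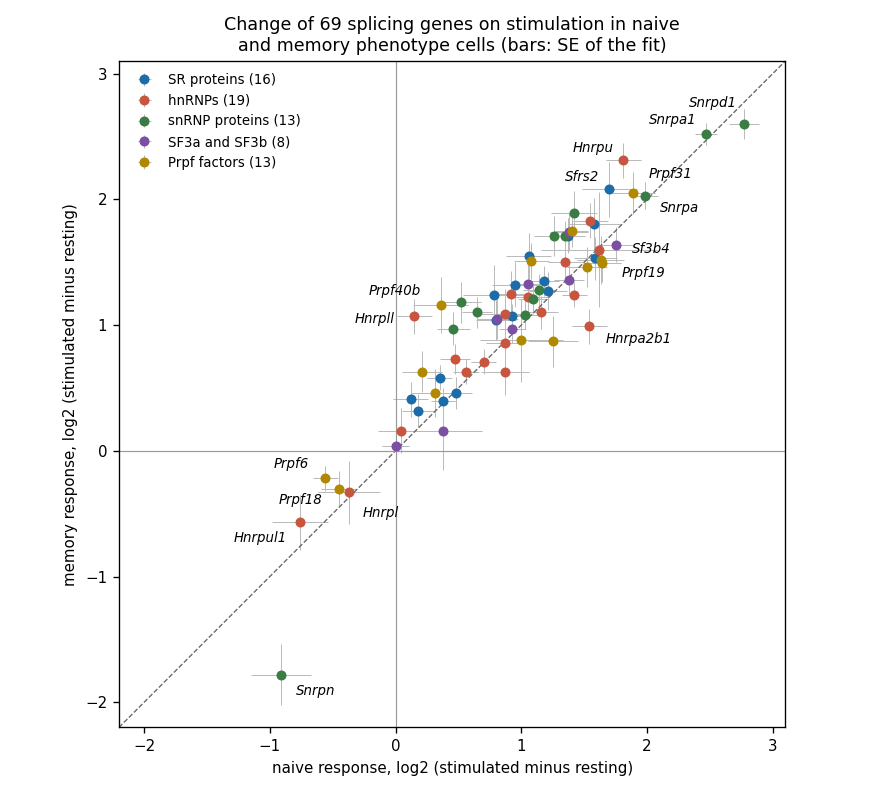
Log2 change on stimulation in naive cells (horizontal) against memory phenotype cells (vertical) for the 69 tested splicing genes, coloured by role, with bars for the SE and a dashed line of equal change. Most points lie in the upper right near the line, Snrpd1 is farthest along it at 2.77 and 2.60, and Hnrpll lies to the left of it at 0.15 and 1.07. Snrpn is alone at the lower left at -0.91 and -1.78.

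Hnrpll, now Hnrnpll, encodes hnRNP L-like, which is known in T cells for repressing the variable exons of Ptprc so that activated and memory cells carry the short form of CD45. On the array it has 3 probes on the minus strand of chromosome 17 (build mm7), and their first 30 bases are shown because the probes gave different values. The first probe spans an exon junction, since its ends lie at positions 78329907 and 78331049. The other probes lie at positions 78325665 to 78325724 and 78327841 to 78327900.
Hnrpll A_51_P390676: tgtttgtgtgtctaaacagcactcagttgt
Hnrpll A_52_P672627: caggaactacagacttagctgacgtcaatc
Hnrpll A_52_P103377: gctgtcataacatgaatatctaatatgtga

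The first probe, which represents the gene, read 0.69, 0.88, 0.93 and 0.93 on the naive resting arrays and 1.32, 0.94, 1.06 and 0.72 on the naive stimulated ones. The memory resting arrays read 0.56, 0.41, 0.42 and 0.37 and the memory stimulated ones 1.85, 1.44, 1.43 and 1.30. The naive groups overlapped, whereas the memory stimulated arrays were all far above the memory resting ones. The change was 0.15 ± 0.14 in naive (adjusted p = 0.345) and 1.07 ± 0.14 in memory cells (adjusted p = 6.24e-06), a difference of 0.91 ± 0.20 (adjusted p = 0.00455). Memory cells were lower at rest by 0.42 on the log2 scale (-0.42 ± 0.14, adjusted p = 0.0458) and higher after stimulation by 0.49 ± 0.14 (adjusted p = 0.0186). The resting call was lost when any 1 of the memory resting arrays, of the naive resting arrays 2 to 4, or of replicates 2 and 3 of either stimulated group was left out, with an adjusted p of up to 0.111 (without naive resting replicate 3). It was also lost under quantile scaling (adjusted p = 0.056), with no filter on dim probes (0.0621), with the mean of the probes (0.11) and with normexp, a different background correction, as run (0.45) or repaired (0.0503), while the value lay between -0.37 and -0.42 under these settings. The stimulated call was lost without memory stimulated replicate 1 (adjusted p = 0.0643) or naive stimulated replicate 2 or 4 (0.0528 and 0.0648). The difference between the responses passed without any single array, but not under the other background correction, normexp, whose fit failed on 3 arrays (0.56, adjusted p = 0.532).

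The second probe of Hnrpll rose in both kinds of cell, by 0.40 ± 0.12 and 1.12 ± 0.13, with a difference of 0.72 ± 0.17 (adjusted p over all probes 0.011). One memory stimulated array was flagged as an outlier for it and left out. The third probe lies at a low level, from -4.13 to -2.62 over the 16 arrays. It gave 0.20 ± 0.20 and 0.25 ± 0.20 with a difference of 0.05 ± 0.28, and did not pass in any comparison. With the 3 probes averaged the difference between the responses was 0.36 (adjusted p = 0.347), and the stimulated difference turned to -0.05 (adjusted p = 0.852).

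**Figure D4:**
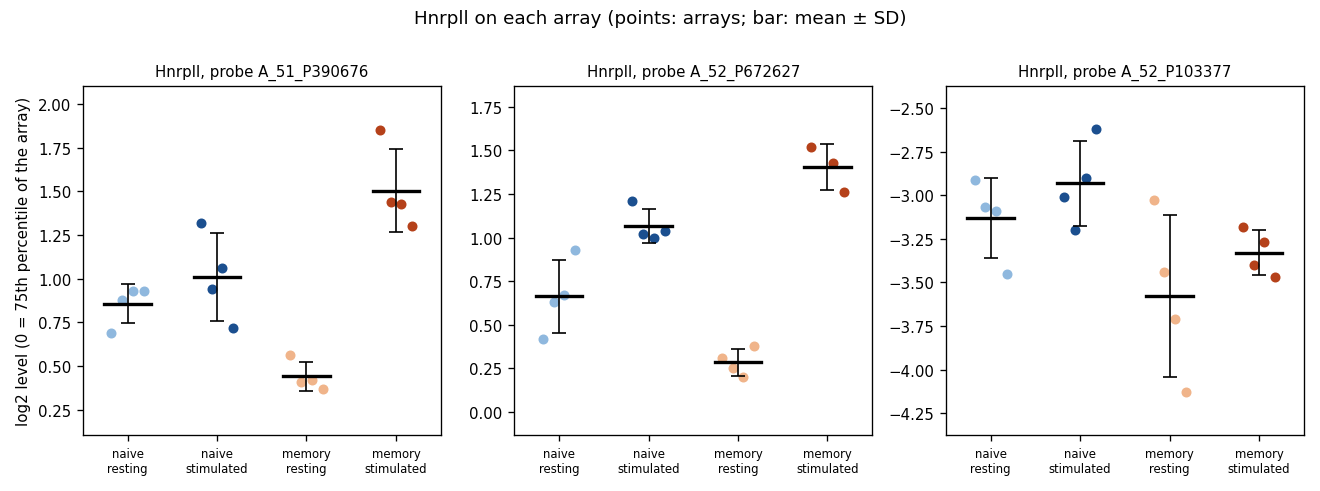
Log2 level of the 3 Hnrpll probes on each of the 16 arrays, with the mean and SD of each group of 4 arrays (3 for the memory stimulated group of the middle probe). All panels span the same number of log2 units at different heights. On the left and middle probes the memory resting group has the lowest mean and the memory stimulated group the highest, and on the right probe the groups overlap.

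At rest 6 splicing genes were lower in memory phenotype than in naive cells and 1 was higher. The 6 make up 8.7% of the 69 genes, close to the 7.68% of all genes that were lower, while 13.9% of all genes were higher. The log2 difference, memory minus naive, was below 0 for 59 of the 69 genes with a median of -0.18 (-0.01 over all genes). The 2337 genes of the same brightness had nearly the same median, -0.16, with 13% lower and 3.89% higher. The 6 are Snrp70 (-0.56 ± 0.16), Sf3b3 (-0.55 ± 0.15), Hnrpf (-0.43 ± 0.12), Hnrpll, Prpf3 (-0.40 ± 0.13) and Snrpe (-0.37 ± 0.12). The groups did not overlap for 5 of the 69 genes with memory cells lower (9.4% of all genes) and for 1, Snrpn, with memory cells higher (13.2%). Sf3b3 read 3.44, 3.68, 3.52 and 3.08 in naive and 2.87, 2.93, 2.80 and 2.91 in memory resting cells. Hnrpf read 7.27, 7.50, 7.38 and 7.62 and then 6.78, 7.08, 6.93 and 7.26, where the highest memory array is just below the lowest naive one.

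These 6 calls are close to the threshold, with adjusted p-values between 0.018 and 0.0458. The number of genes called lower was 21 without naive resting replicate 1 and 11 without memory resting replicate 4, beside 1966 and 1557 of all 18570 genes. It was 0 without naive resting replicate 2, 1 without naive resting replicate 4 or without memory resting replicate 1, and 2 without naive or memory resting replicate 3. It was 3 without replicate 2 of memory resting, naive stimulated or memory stimulated, and without naive stimulated replicate 3. In the fits with 0 to 3 genes named here, 883 to 1249 of all genes were lower. Median centring called 34 lower and 1 higher, beside 4407 and 1910 of all 18570 genes. It moved the median of all genes from -0.01 to -0.22. Quantile scaling called 4 lower and 2 higher, beside 1691 and 2168 of all genes. A fit with the replicate number as a block called 23 lower and 2 higher, beside 2452 and 3000 of all genes. At rest the markers Zbtb7b (CD4 T cells) and Klrb1c (NK cells) were 3.44 and 2.57 log2 units higher in memory than in naive cells. The other markers of these lists, Cd4 (0.29 ± 0.17) and Ncr1 (1.42 ± 0.55), did not pass. The part of these markers in the resting differences was not tested.

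After stimulation 2 genes differed between the kinds of cell, both higher in memory cells (10.1% of all genes were higher and 14.0% lower). They are Hnrpll and Snrpn. By probe, 6 of the 145 were higher (8.74% of all probes) and 2 lower (12.2%). The median difference of the 69 genes was -0.05, the same as over all genes. The count of genes higher was 4 without naive stimulated replicate 1, with 2 genes lower, beside 2186 and 2933 of all genes. It was 1 without memory stimulated replicate 1 or naive stimulated replicate 2 or 4, beside 1476, 1469 and 1494 of all genes. The authors' deposited table gave 2 higher and 5 lower (2061 and 2189 of all genes). The mean of each gene's probes gave 3 higher and 4 lower (1741 and 2672 of all genes). A fit with the replicate number as a block gave 3 higher and 6 lower, beside 2476 and 3302 of all 18570 genes.

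Snrpn stood apart in all 4 comparisons. It encodes SmN, a close relative of the Sm protein of Snrpb that is best known from brain and heart, and the locus is imprinted. Its 2 probes lie on the minus strand of chromosome 7 (mm7), at positions 55735092 to 55735151 and 55735109 to 55735168. They are printed whole because they share 31 bases, in capitals, and still differed. Their positions overlap further, but the letters just before the capitals are not all the same. The probes thus cannot both match the locus exactly there.
Snrpn A_52_P354390: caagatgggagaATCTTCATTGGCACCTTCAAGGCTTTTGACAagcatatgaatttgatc
Snrpn A_51_P168862: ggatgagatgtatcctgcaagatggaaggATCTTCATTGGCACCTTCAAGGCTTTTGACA

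Both probes of Snrpn read far below the 75th percentile. The first read -3.81, -4.44, -4.57 and -4.85 on the naive resting and -2.24, -2.54, -2.51 and -2.70 on the memory resting arrays. The naive stimulated arrays read -5.16, -5.03, -5.01 and -6.10 and the memory stimulated ones -4.20, -4.27, -4.37 and -4.27. Memory resting cells were highest with no overlap, by 1.92 ± 0.24 over naive resting cells (3.39e-05 after adjustment). Memory cells were also higher after stimulation, by 1.05 ± 0.24 (adjusted p = 0.00508). On this probe the level fell in both kinds of cell, by 0.91 (naive) and 1.78 (memory) on the log2 scale. Zbtb7b and Klrb1c moved the same way and were higher at rest in memory cells, as given above. Their changes on stimulation were -2.53 and -3.30 in memory and -0.58 and -1.62 in naive cells. The other CD4 T cell marker, Cd4, gave 0.29 at rest, -0.35 in memory and 0.15 in naive cells. The other NK cell marker, Ncr1, gave 1.42, 0.30 and -0.39, and none of these values of Cd4 and Ncr1 passed. The part of these markers in the Snrpn values was not tested.

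The second Snrpn probe had the same resting difference, 1.99 ± 0.21. It fell in memory cells (-1.10 ± 0.21) but rose in naive cells (0.65 ± 0.21, adjusted p over all probes 0.0134). Its difference after stimulation was 0.25 ± 0.21 and did not pass, and its responses differed by -1.75 ± 0.30 (adjusted p = 0.000994). The higher level in memory cells at rest is thus seen on both probes, and the naive response is not settled in direction. Normexp turned the naive change of the first probe to 0.35 (adjusted p = 0.607) and the memory change to 0.49 (adjusted p = 0.41). Its fit failed on 3 arrays, all of them stimulated. With normexp repaired neither change turned sign.

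Probes of 1 gene did not always move together. Of the 49 genes with several tested probes, all probes rose for 31 in naive and 28 in memory cells, and at least 1 rose for 46 in each. Probes of 5 genes passed in opposite directions in naive cells (Hnrpa3, Hnrpul1, Prpf18, Prpf6 and Snrpn) and probes of 4 genes in memory cells (Hnrpa3, Hnrpul1, Prpf18 and Prpf39). These counts were not made over all genes with several probes, so they cannot be read as particular to the splicing genes. Parts of the probes of 3 of these genes are shown, 30 bases each on mm7, because each pair reads 1 gene and gave opposite signs. Those of Prpf18 lie on the minus strand of chromosome 2, those of Hnrpul1 on the minus strand of chromosome 7 and those of Hnrpa3 on the plus strand of chromosome 2. Capitals mark the 26 bases that 2 Prpf18 probes share.
Prpf18 A_52_P62270: aagaatcaataacagatattattaagttca
Prpf18 A_51_P148597: agaaACTCCTGGGATATGTAGGAAGATGAC
Prpf18 A_52_P206881: ACTCCTGGGATATGTAGGAAGATGACcttt
Hnrpul1 A_52_P573366: ggtgtgagccattataccagcaaggagctt
Hnrpul1 A_51_P156363: gttccccgtaactttgcacacaagcgtctg
Hnrpa3 A_51_P272617: aggaaacccttcttgttcaggactgtcata
Hnrpa3 A_51_P222088: cgtgtataaattaggggacacatggtaaga

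The overlapping Prpf18 probes (positions 4539499 to 4539592) fell together in naive cells, by 0.45 and 0.49 on the log2 scale. The third probe, with its ends at 4550854 and 4552955 and so across an intron, rose from -0.86, -0.84, -0.77 and -0.54 to -0.04, 0.06, 0.10 and 0.11 in naive cells. Its change was 0.81 ± 0.11 in naive and 0.72 ± 0.11 in memory cells. The gene lies on the minus strand, so the probe that rose is the more 5' one. In Hnrpul1 the probe at 22510720 to 22510779 rose by 0.72 ± 0.17 and 0.65 ± 0.17, while the probe at 22495550 to 22495609, also the more 3' one, fell by 0.76 and 0.57 on the log2 scale. With the tested probes averaged, the naive change of Hnrpul1 was 0.06 (adjusted p = 0.722).

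Hnrpa3 has 4 tested probes. The brightest, at 75509266 to 75509325, went from 7.23, 7.11, 7.02 and 7.32 to 7.77, 7.75, 7.63 and 7.79 in naive cells, or by 0.56 ± 0.10. The most 3' probe, at 75512803 to 75512862, went from 2.10, 2.53, 2.40 and 2.84 to 1.35, 1.67, 1.65 and 1.41, or by -0.94 ± 0.15. On that probe the resting memory cells were also lower than naive cells (-0.89 ± 0.15, adjusted p over all probes 0.000504), which the brightest probe did not show (-0.04 ± 0.10). For Prpf6 the dim probe rose by 0.36 ± 0.11 in naive cells where the bright one fell. For Prpf39 the brightest probe rose in memory cells by 0.46 ± 0.19, another gave -0.27 ± 0.22, and the dimmest fell by 0.95 on the log2 scale and was above background on only 1 of 4 memory stimulated arrays. Quantile scaling gave a memory change of -0.01 (adjusted p = 0.955) for the brightest Prpf39 probe.

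**Figure D5:**
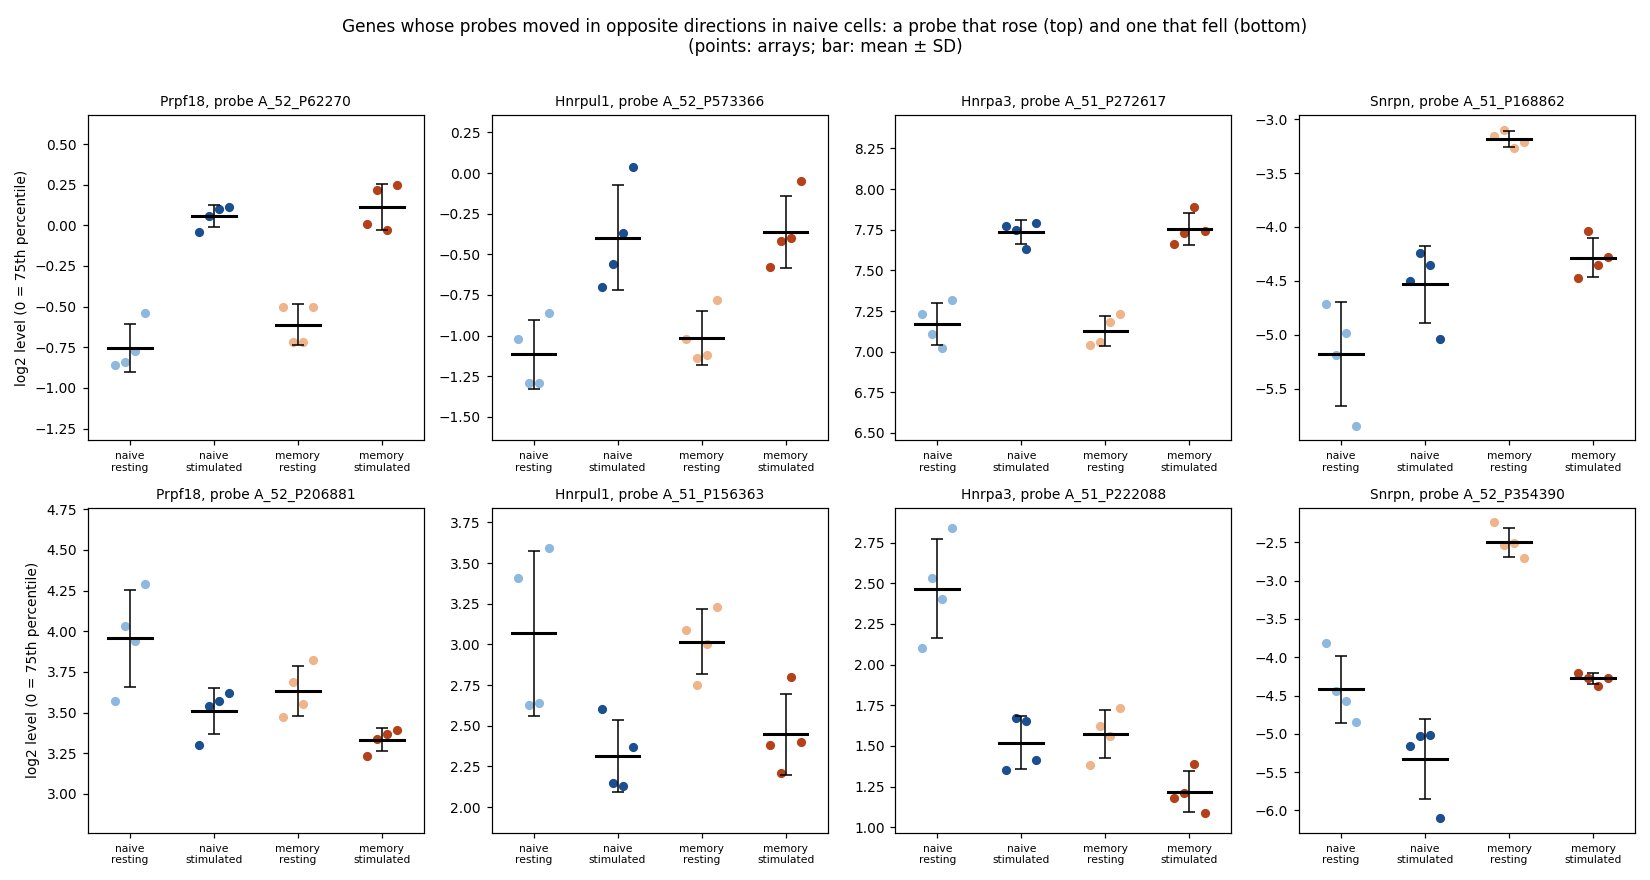
Log2 level on each of the 16 arrays of a probe that rose (top) and a probe that fell (bottom) in naive cells for Prpf18, Hnrpul1, Hnrpa3 and Snrpn, with the mean and SD of each group of 4 arrays and a vertical axis of its own in each panel. For Prpf18 the upper probe rose by 0.81 and the lower one fell by 0.45 on the log2 scale. For Snrpn both probes are highest in memory resting cells. Normexp, whose fit failed on 3 stimulated arrays, turned the fall of the lower probe in naive cells to 0.35, and its repaired version did not turn the sign.

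Probe by probe, 10 member probes passed in the interaction (4.65% of all probes passed upward and 11.3% downward). Beside 2 of Hnrpll they are 2 of Sfrs14, 1 of Sfrs2 and 2 of Snrpa upward, and 1 each of Prpf4b, Sfrs8 and Snrpn downward. None but the first Hnrpll probe is the brightest of its gene. The Snrpa probes changed by 1.65 and 1.53 in naive and by 2.30 and 2.29 in memory cells, beside 1.98 and 2.03 for the gene's brightest probe. One naive stimulated array was left out of the second of these probes as an outlier spot. The 2 Sfrs14 probes gave 0.21 and 0.30 in naive and 0.90 and 0.96 in memory cells, beside 0.93 and 1.07 for the brightest. The Sfrs8 probe rose by 0.78 ± 0.17 in naive cells and gave -0.15 ± 0.17 in memory cells.

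Other genes of the splicing pathway were read from 6 lists that hold 101 genes outside the name rule, of which 100 were tested. Of these 65 rose and 12 fell in naive cells and 73 rose and 10 fell in memory cells, with medians of 0.71 and 0.91. The genes that build snRNPs and carry them between nucleus and cytoplasm rose with the Sm proteins, 15 of 17 in naive and 16 of 17 in memory cells, with none down and medians of 1.22 and 1.47. Wdr77 and Prmt5, which methylate Sm proteins before assembly, rose by 2.75 and 1.22 in naive and by 3.04 and 1.21 in memory cells. Smn1 and Gemin5 of the SMN complex, which loads the Sm ring onto the RNA, rose by 1.93 and 2.63 in naive and by 2.04 and 2.87 in memory cells. Gemin2 gave 0.01 and 0.04 and did not pass.

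Of the 10 Lsm genes, whose proteins form the ring of the U6 particle and a ring of mRNA decay, 6 rose and 2 fell in naive cells and 7 rose in memory cells. In 3' splice site recognition 4 of 5 rose in each, among them U2af1 with 1.62 and 1.76. Of 24 other spliceosome and exon junction proteins 17 rose and 3 fell in naive cells and 19 rose and 3 fell in memory cells. Snu13, which binds U4 RNA, rose by 2.67 and 2.36, and Magoh of the exon junction complex by 1.91 and 2.19. Slu7, Ctnnbl1 and Syf2 fell in both, by 0.77 to 1.18, 0.64 to 1.04 and 0.67 to 0.83 on the log2 scale.

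The regulators were more mixed. Of 30 other alternative splicing regulators 18 rose and 5 fell in each kind of cell. Syncrip rose by 2.26 and 2.49, Fubp1 by 2.16 and 2.27, and Ptbp1, the polypyrimidine tract binding protein, by 0.90 and 1.25. Celf2 was read from a dim entry named B230218O03. That entry fell by 2.99 (naive) and 3.72 (memory) on the log2 scale, to mean levels of -4.65 and -4.72. Mbnl1, a regulator of exons during differentiation, fell by 1.11 and 0.64. Of 14 tested SR protein kinases and SR partners 5 rose and 2 fell in naive cells and 9 rose and 2 fell in memory cells. Since 38.2% of all genes rose in naive and 31.3% in memory cells, the naive rise of this list is near that of all genes. The kinase gene Clk1, whose product phosphorylates SR proteins, fell by 1.11 and 1.08 on the log2 scale, and Srpk1 gave 0.29 ± 0.22 and 0.13 ± 0.22 and did not pass.

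Promoters of the splicing genes were searched because so many members moved together. RefSeq promoter windows of 300 bases (250 before to 50 after each start, build GRCm38.p6) were matched by current symbol for 62 of the 69 genes, and 7 motifs were searched on both strands. A gene counted where any of its listed starts held the motif. The ETS core CCGGAAG was in the window of 22 of the 62 genes (35.5%), beside 17.9% of the 11341 tested genes with a window and 9.93% of all 27025 genes with one. The E-box CACGTG, the core that Myc and its relatives bind, was in 10 (16.1%), beside 11.1% of tested and 8.09% of all genes. The GC box GGGCGG was in 69.4% (62.6% of tested genes) and CCAAT in 45.2% (42.6%). The palindromic NRF1 motif, the CRE motif TGACGTCA and the YY1 motif AAGATGGCG were each in 2 genes. No motif contains another. These shares are descriptions and were not tested.

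Stretches of 30 bases around a match are shown for genes that rose in both kinds of cell, with the motif or its reverse complement in capitals, on the gene's own strand. They are those of the genes whose smaller response was largest for each motif, with at least 1.40 for the E-box (Snrpa and Prpf3) and at least 1.38 for the ETS core (Sfrs7, Prpf19, Prpf3 and Sf3b3). Those of Snrpa lie at chr7:27195812-27195841, chr7:27196286-27196315 and chr7:27196327-27196356 (minus strand), Prpf3 at chr3:95855856-95855885 and chr3:95855792-95855821 (minus), and Sfrs7 at chr17:80207505-80207534 (minus). Prpf19 lies at chr19:10895152-10895181 (plus) and Sf3b3 at chr8:110847014-110847043 (minus).
Snrpa E-box: acgcctttcgcgCACGTGgactaatgggaa
Snrpa E-box: gctcttgaaggtCACGTGatactggcggaa
Snrpa E-box: cctttcccatccCACGTGatagaactcgca
Prpf3 E-box: gccttccgtagtCACGTGccgtagggaccg
Prpf3 ETS: ccgtagggcaaCCGGAAGgtttccggttcc
Sfrs7 ETS: gcaggagaccgCCGGAAGgccacaggttta
Prpf19 ETS: tggagcgctcgCCGGAAGaagccgagccaa
Sf3b3 ETS: cccggtgggcgCTTCCGGgcttgcgaggtc

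The motifs start 32, 69 and 73 bases before a listed transcription start in Snrpa, 120 and 57 before it in Prpf3, 218 in Sfrs7, 68 in Prpf19 and 229 in Sf3b3. Snrpa1, with one of the largest changes, holds neither the E-box nor the ETS core in its window, and Prpf6, which fell in naive cells, holds the ETS core. A match is a stretch of letters and was not tested as a binding site.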

How the data were processed

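RNA of 16 samples was measured on 1-colour Agilent arrays, 4 arrays in each of 4 groups, after oligo-dT primed amplification of about 200 ng of total RNA and labelling with Cy3, per the labels' protocols. Per the file headers, Feature Extraction 9.5.3.1 made the deposited processed signal, a background-corrected intensity per spot. The authors also deposited a table of processed intensities (33797 rows), whose scaling the sources used here do not give. Its values were taken to log2 before use, and then correlated with the log2 processed signal at 0.9751 to 0.984 per array, with slopes of 0.736 to 0.815.

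Outlier spots were left out, spots of a probe averaged, and the log2 75th percentile of each array (484.6 to 669.8 intensity units) subtracted. A probe was tested if well above background on 3 of 4 arrays of a group (27349 of 41174), and a gene was its brightest tested probe (18570 genes). Changes were tested with limma 3.58.1 in R 4.3.3 (lmFit and eBayes, 1 mean per group over 16 arrays), two-sided, with Benjamini-Hochberg adjustment at 0.05, and separately per probe. Other steps used Python 3.11.15, pandas 2.3.3, numpy 2.4.6 and matplotlib 3.10.9. The fit was tested on simulated data. The number of arrays limits the precision.

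The members, the gene lists and the markers were chosen with earlier results of these data known. Named genes were up to 4 risers and 4 fallers per role and comparison, 20 genes listed by name, genes with probes called in opposite directions, and genes called in the interaction; other members are named by role, and the pathway examples were chosen after their values were seen. One member is counted but not reported by name here. Levels of different probes were not compared. Replicate numbers were not taken to pair the samples, since the labels do not tie them to the occasions and not every same-numbered pair deviated together. Alternatives were another background correction, 2 other scalings, the authors' table, 2 filters, the mean of a gene's probes, a replicate block and leaving out each array. The background fit of normexp failed on 3 arrays (naive stimulated 1, memory stimulated 1 and 2), and a version with the median fit of the other arrays in its place was added after the data were seen. Promoter windows are RefSeq's for GRCm38.p6, and probe positions are those of mm7 in the files.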

Additional observations from a re-analysis of the deposited data

Results flagged for a closer look

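In 20 of 168 groups of 4 arrays checked for the named genes, 1 array lay far from the other 3 by Dixon's test; chance flags about 1 in 20 groups. Replicate 1 was the low array for Sfrs15 in naive resting (1.83), naive stimulated (3.12) and memory stimulated cells (3.24), for Sfrs6 in naive resting (2.73) and memory resting cells (2.39), for Sfrs2 (6.14), Sfrs7 (6.76) and Hnrpa1 (5.95) in naive stimulated cells, and for Sfrs10 (3.71) and Prpf3 (2.38) in naive resting cells. Replicate 4 was the high array for Hnrpu (6.33) and Prpf31 (4.62) in naive resting cells and for Hnrpd (5.17), Sf3b5 (2.66) and Snrpa1 (2.88) in memory resting cells. It was the low array for Hnrpa0 in naive resting (-0.85) and memory resting cells (-0.16), for Sf3b1 (1.86) in memory resting cells and for Snrpn in naive stimulated cells (-6.10). Sf3b1 was low on memory stimulated replicate 3 (1.76).

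The response of Hnrpll differed between the 2 kinds of cell by 0.91 on the log2 scale, tested as an interaction in the limma fit (adjusted p = 0.00455).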

How the results depend on the processing

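The counts of splicing genes that rose stayed within 1.5 times in naive cells under every setting tried (39 to 56), and in memory cells under all but normexp (35); the medians of all 5 roles stayed above 0. All other counts are small and moved. Normexp, whose fit failed on 3 arrays, gave 2 naive genes down, 4 memory genes down, and no gene in the resting (0 up, 0 down), stimulated (0 up) or interaction comparison (0 up). Its repaired version gave 4 memory genes down, 10 lower at rest and an interaction of 6 up and 2 down, beside 5416, 1806, 1203 and 1391 of all genes. Quantile scaling gave 8 down in naive and 8 in memory cells, 2 higher at rest and an interaction of 2 up and 1 down. Median scaling gave 1 memory gene down, 34 lower at rest, 5 higher after stimulation and 26 up in the interaction. The matching counts over all 18570 genes were 5444, 4407, 3070 and 4851. The authors' table gave 10 and 9 down, 5 higher and 11 lower at rest, 5 lower after stimulation and an interaction of 4 up and 3 down. Over all genes it gave 6574 and 7101 down, 2244 higher and 2235 lower at rest, 2189 lower after stimulation and an interaction of 1692 up and 1986 down. The filter on all 16 arrays gave 1 memory gene down, 0 higher at rest, 1 higher after stimulation and 2 up in the interaction. The mean of a gene's probes gave 0 naive and 1 memory gene down, 4 lower after stimulation and 1 down in the interaction. Causes were not tested.

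Same-numbered arrays deviated together at correlations of -0.21 to 0.586, so the numbers were not taken to pair them, although 13 of 16 arrays correlated best with their own number. The replicate number is also the position of the array on its slide, so number and position cannot be told apart. The fit with the replicate block gave 56 up and 4 down in naive cells, 61 up and 4 down in memory cells, 2 higher and 23 lower at rest, 3 higher and 6 lower after stimulation and an interaction of 6 up and 2 down. Over all 18570 genes that fit gave 7445 up and 6047 down in naive and 6127 up and 7599 down in memory cells. It gave 3000 higher and 2452 lower at rest, 2476 higher and 3302 lower after stimulation, and an interaction of 1782 up and 3006 down. Slide could not be run as a block, since each group has its own. Leaving out single arrays gave 55 to 56 up and 4 down in naive cells, 57 to 61 up and 1 to 3 down in memory cells, 1 higher and 0 to 21 lower at rest, 1 to 4 higher and 0 to 2 lower after stimulation, and 1 to 6 up and 0 to 1 down in the interaction. Memory genes down numbered 1 without memory resting replicate 1 or 4 or memory stimulated replicate 2 or 4.

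Of single genes, over 345 gene and comparison pairs and 25 settings, 23 called values changed sign, 170 lost and 215 gained a call. In memory cells Prpf39 became -0.07 (authors' table), -0.25 (mean of probes), -0.07 (normexp) and -0.01 (quantile), Sfrs16 -0.29, -0.17 and -0.22 (authors' table, normexp, quantile), Sfrs4 -0.14, -0.13 and -0.07, and Sfrs8 -0.37, -0.25 and -0.33, with 0.00 for the mean of its probes. Snrpn became 0.49 in memory and 0.35 in naive cells with normexp as run, and kept its sign with normexp repaired. In naive cells the authors' table gave -0.02 for Sfrs2ip, -0.10 for Snrp70 and -0.22 for Snrpg, quantile scaling -0.03 for Snrp70 and -0.12 for Snrpg, and the mean of probes 0.06 for Hnrpul1. The stimulated difference of Hnrpll became -0.05 with the mean of its probes, which lacks the second probe on a memory stimulated array.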

Other observations

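Probes of 1 gene that lie apart along it were compared, a choice made after the data were seen. For genes with 2 probes 500 to 200000 bp apart, both above background on all 16 arrays, the change of the 3' probe was set against that of the 5' probe. In naive cells the 3' probe changed less, or fell more, in 12 of 42 splicing genes (28.6%) and more in none, beside 38.7% and 8.28% of all 4093 such genes, with a median difference of -0.30 in both. In memory cells it was lower in 17 of the 42 (40.5%) and higher in 1, beside 34.9% and 7.28% of all, with medians of -0.29 and -0.20. Between memory and naive cells at rest it was lower in 3 (7.14%) and higher in 1 (2.38%) of the 42, beside 2.57% and 1.71% of all.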
